A study of Rattus norvegicus with 11 samples.

Results

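Replication and mitosis genes are described here across 4 groups of rat calvarial libraries. They are 46 genes of the cell cycle, taken by symbol from a table of 23781 genes, and all 46 were found and passed the filter on low counts that left 18049 genes. By role, 18 act in G1/S and DNA replication, 22 in mitosis, 3 are D-type cyclins and 3 are inhibitors of cyclin-dependent kinases (CDKs). RNA-seq was done on Cd45- cells sorted from the collagenase-digested new tissue of defects made across a cranial suture and the adjoining bone. The animals were Sprague Dawley rats aged 4 months, and tissue was taken 6 weeks after surgery. PLA defects received an electrospun polylactic acid membrane (2 libraries), CTS defects a porous chitosan scaffold (3 libraries), GelMA defects a gelatin methacryloyl hydrogel (3 libraries) and NC defects no scaffold (3 libraries). The labels name no transgene or drug in any group, and all shared the same surgery, digestion and sort. Nothing in the labels says whether libraries of a group came from separate rats, so p-values measure the spread between libraries, which may be partly technical.

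A dividing cell first licenses its replication origins in G1 by loading the Mcm helicase, then copies its DNA in S phase and separates the copies in mitosis. E2F factors switch on the genes for licensing, nucleotide supply and fork proteins at the G1/S boundary. Cyclin B with Cdk1, the Aurora and Polo kinases and the anaphase-promoting complex drive mitosis. D-type cyclins act upstream of this, in G1, where growth signals raise them, while inhibitors such as p21, the product of Cdkn1a, hold the kinases in check. In adult bone and its marrow most dividing cells are progenitors, including those of the granulocyte lineage.

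Libraries held 22509898 to 31290849 counts. The replication and mitosis genes took 0.139 to 0.143% of all counts in PLA, against 0.249 to 0.331% in CTS, 0.185 to 0.212% in GelMA and 0.109 to 0.312% in NC. NC 2 stood apart from NC 1 and NC 3 in most of the comparisons that follow. It held the 0.109%, and collagen genes Col1a1, Col1a2 and Col3a1 took 16.9% of its counts, against 0.824 to 3.48% in the other 10 libraries. Ptprc, which encodes Cd45, was present in every library despite the sort, at 1019 and 1055 CPM in PLA, against 1035 to 1271 CPM in CTS, 1138 to 1347 CPM in GelMA and 336 to 1459 CPM in NC. CPM are counts relative to library size after TMM scaling, which offsets differences in library composition.

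Some of the 46 genes were called lower in PLA against each other group, few of them against GelMA. Genes were tested with edgeR's quasi-likelihood model on all 11 libraries, and a gene was called where its level differed by more than 1 on the log2 scale with a p, adjusted by Benjamini-Hochberg over all genes, under 0.05. Against NC, 24 of the 46 were called lower in PLA, while 4.01% of all tested genes were. Only Cdkn1a was called higher, against 8.32% of all genes. Against CTS, 32 were lower (3.53% of all genes) and Cdkn1a was higher (6.42%). Against GelMA, 3 were lower (1.47%) and Cdkn1a again was higher (4.61%). The 3 were Cdc20, Cdc25c and Ccnd2, with no replication or G1/S gene among them. The median log2 fold change of the 46 genes was -1.71 relative to NC, -0.89 relative to GelMA and -2.09 relative to CTS, beside medians of -0.11, -0.04 and -0.03 over all genes. Both PLA libraries lay below every NC library in 28 of the 46 genes (17.2% of all genes), below every GelMA library in 37 (30.7%) and below every CTS library in 40 (27.8%). In bulk libraries such as these, fewer dividing cells and less RNA of these genes per cell cannot be told apart.

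Single libraries weighed on these counts. The 24 genes lower than in NC became 13 without NC 3 and 40 without NC 2. Over all tested genes, 724 were lower with every library, 534 without NC 3 and 1356 without NC 2. Leaving out PLA 1 or PLA 2 left 1 PLA library, and fewer of the 46 were called. The median log2 fold change of the 46 genes against NC was then -1.81 or -1.55. The 32 genes lower than in CTS became 20 without CTS 1, where the lower calls over all genes went from 637 to 325. Fewer of the 46 were called without PLA 1 or PLA 2 too, at medians of -2.25 or -1.98. Against GelMA, none was called lower without GelMA 1 or GelMA 2. There was 1 without CTS 1, CTS 2, GelMA 3 or NC 3, and 18 without NC 2. Over all genes, 266 were lower than in GelMA with every library, 66 without GelMA 1, 86 without GelMA 2 and 624 without NC 2. Without PLA 1 or PLA 2 fewer of the 46 were called against GelMA, at medians of -0.99 or -0.74. With edgeR on PLA and NC alone, without the spread of the other groups, 1 of the 24 lower calls against NC was kept, that of Tyms. In that fit 31 of all 16656 tested genes were called lower. Calls that held in the model of all groups when any single library was left out were those of Cdkn1a, Mcm4 and Tyms against NC, and of Cdkn1a, Mcm4, Tyms and Cdc20 against CTS.

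**Figure D1:**
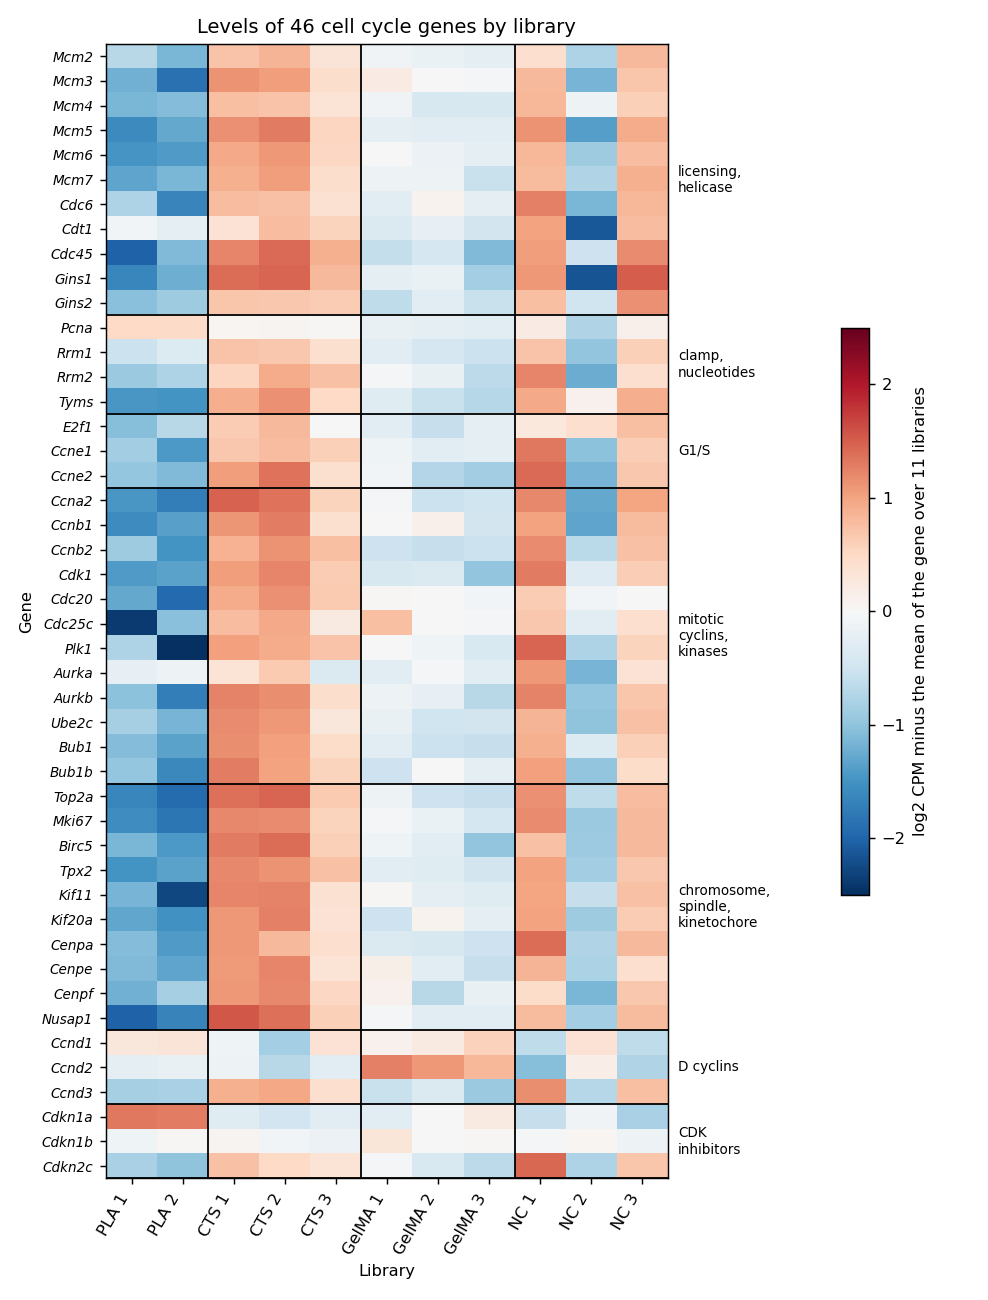
Level of each of the 46 genes (rows, by role) in each of the 11 libraries (columns), as log2 CPM minus the mean of that gene over the libraries; red is above and blue below the mean. The 2 PLA columns and NC 2 are blue for most replication and mitosis genes, the CTS columns, NC 1 and NC 3 are red, and Cdkn1a is reddest in PLA.

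Promoter sequences of 6 genes are shown because they carry the DNA elements that set the replication and mitosis genes apart in the textbook account. The cell cycle genes homology region (CHR) and the CCAAT box are found at genes of mitosis, and E2F sites at genes of G1/S. Promoters came from RefSeq on the rat assembly GRCr8, which is not the assembly of the counts, and 35 of the 46 genes matched by symbol. Exact matches were sought on both strands in the 250 bases before the gene start to TTTGAA as the CHR and to CCAAT. The E2F core was sought in 4 spellings, of which one was TTCCCGC, another spelling was TTCGCGC, the third was written as TTGCCGC, and the last of them was TTGGCGC. The 150 bases before the start follow, 5′ to 3′ on the strand of the gene, with every match in capitals, including those on the other strand, where CCAAT reads as ATTGG. The first 3 are mitosis genes.
Cdc20: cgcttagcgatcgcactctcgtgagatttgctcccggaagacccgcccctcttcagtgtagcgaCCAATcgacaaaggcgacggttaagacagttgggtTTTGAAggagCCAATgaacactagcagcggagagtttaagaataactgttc
Cdk1: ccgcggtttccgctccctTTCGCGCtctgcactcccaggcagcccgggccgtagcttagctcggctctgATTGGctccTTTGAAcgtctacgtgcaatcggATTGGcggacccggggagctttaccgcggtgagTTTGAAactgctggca
Ccnb2: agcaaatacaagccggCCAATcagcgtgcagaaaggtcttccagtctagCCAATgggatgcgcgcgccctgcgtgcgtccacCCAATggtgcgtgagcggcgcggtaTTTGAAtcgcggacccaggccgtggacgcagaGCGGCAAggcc
The next 3 are a nucleotide synthesis gene and a pair of helicase genes.
Tyms: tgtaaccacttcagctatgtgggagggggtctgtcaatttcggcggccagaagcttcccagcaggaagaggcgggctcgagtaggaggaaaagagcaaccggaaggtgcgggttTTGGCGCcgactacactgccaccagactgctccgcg
Mcm6: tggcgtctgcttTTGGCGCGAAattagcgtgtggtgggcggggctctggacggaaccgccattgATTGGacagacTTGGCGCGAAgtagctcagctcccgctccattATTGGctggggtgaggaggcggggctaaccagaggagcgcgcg
Mcm7: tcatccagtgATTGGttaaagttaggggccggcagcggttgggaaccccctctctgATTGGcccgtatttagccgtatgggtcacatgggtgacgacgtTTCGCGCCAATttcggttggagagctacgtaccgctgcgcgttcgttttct
On GRCr8 these windows are chr5:137255800-137255949 (minus strand) for Cdc20, chr20:19265143-19265292 (plus strand) for Cdk1, chr8:79981659-79981808 (minus strand) for Ccnb2, chr9:120776084-120776233 (minus strand) for Tyms, chr13:42404353-42404502 (minus strand) for Mcm6 and chr12:22163179-22163328 (minus strand) for Mcm7. In Mcm6 each run of 10 capitals holds 2 E2F spellings that overlap on opposite strands, and in Mcm7 2 E2F spellings overlap each other and a CCAAT.

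Among the mitosis genes with a promoter, 8 of 18 (44.4%) held a CHR match in the 250 bases, as did 1 of 13 (7.69%) replication and G1/S genes and 16.2% of all 33469 promoters of the table. All 8 also held CCAAT, a combination found in 0 of the 13 replication and G1/S genes and in 5.87% of all promoters. CCAAT, with or without CHR, was in 15 of 18 mitosis genes (83.3%), 9 of 13 replication and G1/S genes (69.2%) and 34% of all promoters. The order was the other way for the E2F core, in 7 of 13 replication and G1/S genes (53.8%), 3 of 18 mitosis genes (16.7%) and 7.59% of all promoters. None of the 4 D-type cyclins and CDK inhibitors with a promoter in the table held CHR or E2F letters in this window. These matches describe letters in a window and were not tested for binding.

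Genes of origin licensing and the replicative helicase were among those lower in PLA. Of 11, 7 were called lower against NC and 8 against CTS, and none against GelMA. Mcm2 to Mcm7 encode the 6 subunits of the helicase ring. Mcm2 had 20.1 and 14.7 CPM in PLA, against 53.5, 58.6 and 40.7 CPM in CTS, 30.6, 29.0 and 27.8 CPM in GelMA and 43.5, 19.0 and 57.0 CPM in NC. Mcm3 had 19.4 and 12.2 CPM in PLA, against 97.8, 91.7 and 60.6 CPM in CTS, 51.4, 44.2 and 42.9 CPM in GelMA and 77.8, 19.8 and 72.3 CPM in NC. Mcm4 had 24.7 and 25.6 CPM in PLA, against 91.3, 89.3 and 69.0 CPM in CTS, 51.1, 41.1 and 41.1 CPM in GelMA and 95.9, 49.6 and 82.3 CPM in NC. In all 3 genes both PLA libraries lay below every CTS and GelMA library, and NC 2 lay far below NC 1 and NC 3. PLA lay below NC 2 in Mcm3 and Mcm4, whereas in Mcm2 PLA 1 was above it. Mcm5 had 9.99 and 12.3 CPM in PLA, against 66.2, 73.9 and 43.6 CPM in CTS, 25.7, 24.9 and 24.7 CPM in GelMA and 65.3, 11.6 and 57.1 CPM in NC. Mcm6, whose promoter holds paired E2F letters, had 16.2 and 16.8 CPM in PLA, against 86.4, 95.0 and 64.3 CPM in CTS, 44.6, 40.5 and 37.9 CPM in GelMA and 80.1, 24.0 and 76.8 CPM in NC. Mcm7 had 17.2 and 19.3 CPM in PLA, against 79.4, 88.0 and 57.8 CPM in CTS, 39.3, 39.3 and 29.0 CPM in GelMA and 74.1, 25.3 and 79.3 CPM in NC. PLA again lay below all CTS and GelMA libraries, and below all NC libraries except that NC 2 fell between both PLA values in Mcm5. Relative to NC, the log2 fold changes (± SE) were -1.59 ± 0.27 for Mcm4 (adjusted p = 0.00369), -1.87 ± 0.44 for Mcm6 (0.0177), -1.71 ± 0.43 for Mcm7 (0.0237), -1.84 ± 0.51 for Mcm3 (0.0354) and -2 ± 0.59 for Mcm5 (0.0437), while Mcm2 at -1.19 ± 0.39 was not called (0.0631). All 6 were called against CTS, with log2 fold changes from -2.46 in Mcm5 to -1.55 in Mcm2. The calls of Mcm4 held without any single library, and each other call was lost without PLA 1 and without PLA 2. Those of Mcm2 and Mcm5 against CTS were also lost without CTS 1 or CTS 2. Against NC the call of Mcm7 was also lost without NC 3, that of Mcm3 without GelMA 2, NC 1 or NC 3, and that of Mcm5 without any single library except CTS 3 and NC 2.

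Cdc45 and the GINS complex join Mcm to form the active helicase. Cdc45 had 1.57 and 2.96 CPM in PLA, against 14.8, 16.9 and 11.9 CPM in CTS, 4.20, 4.79 and 2.95 CPM in GelMA and 13.2, 4.47 and 14.5 CPM in NC. Gins2 had 1.70 and 1.89 CPM in PLA, against 5.64, 5.63 and 5.47 CPM in CTS, 2.25, 2.91 and 2.39 CPM in GelMA and 5.94, 2.48 and 7.73 CPM in NC. Both were lower in PLA than in CTS and NC without overlap, PLA 2 overlapped GelMA in Cdc45, and NC 2 lay close to GelMA. Cdc45 was called lower in PLA, at -2.24 ± 0.52 (adjusted p = 0.0174) against NC and -2.68 ± 0.53 (0.0094) against CTS on the log2 scale. The values of Gins2 were -1.58 ± 0.46 (0.0417) and -1.63 ± 0.46 (0.0402). The Cdc45 calls were lost without PLA 1, and that against NC also without PLA 2. The Gins2 calls were lost without any single PLA, CTS or GelMA library, and that against NC also without NC 1 or NC 3. Gins1, the licensing factor Cdc6 and its partner Cdt1 were not called in any comparison, with log2 fold changes against NC of -2.21, -1.77 and -0.54. Gins1 ranged over 1.04 to 1.37 CPM in PLA, against 5.64 to 8.75 CPM in CTS, 1.78 to 2.88 CPM in GelMA and 0.723 to 9.22 CPM in NC.

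Of 4 genes for the fork clamp and nucleotide supply, 1 was called lower in PLA. Tyms, the thymidylate synthase that makes dTMP, had 12.8 and 12.5 CPM in PLA, against 65.5, 77.7 and 49.8 CPM in CTS, 28.6, 24.0 and 21.5 CPM in GelMA and 68.3, 37.6 and 65.8 CPM in NC. PLA was lowest without overlap, GelMA came next, and CTS and NC lay above both. Tyms was called lower in PLA against NC at -2.17 ± 0.30 (adjusted p = 0.00103) and against CTS at -2.34 ± 0.30 (0.000922), and missed the threshold against GelMA at -0.96 ± 0.28 (0.0613). Pcna, the sliding clamp of the fork, had 439 and 429 CPM in PLA, against 322, 327 and 317 CPM in CTS, 272, 262 and 256 CPM in GelMA and 359, 184 and 337 CPM in NC. Its levels after TMM were highest in PLA without overlap, and it was not called, with log2 fold changes of 0.57 ± 0.24 relative to NC (adjusted p = 0.146), 0.72 ± 0.24 relative to GelMA (0.0933) and 0.43 ± 0.24 relative to CTS (0.278), the last of which turned to -0.05 with library size alone in place of TMM. Rrm1 and Rrm2, the subunits of ribonucleotide reductase, were not called in any comparison. Rrm1 stood at 79.0 and 90.1 CPM in PLA and 79.5 to 95.6 CPM in GelMA.

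Of the G1/S regulators, E2f1, an activator of S-phase genes, had 3.85 and 4.98 CPM in PLA, against 12.6, 14.2 and 8.06 CPM in CTS, 6.70, 5.46 and 6.92 CPM in GelMA and 9.67, 10.8 and 13.7 CPM in NC. Its 3 NC libraries lay close together and above both PLA libraries. E2f1 was called lower in PLA, at -1.36 ± 0.31 against NC (adjusted p = 0.016) and -1.39 ± 0.31 against CTS (0.0163) on the log2 scale, calls that were lost without PLA 1 or without PLA 2. Ccne1 and Ccne2, the E-type cyclins that start S phase with Cdk2, were at -1.72 and -1.69 against NC and at -1.80 and -2.02 against CTS and were not called.

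**Figure D2:**
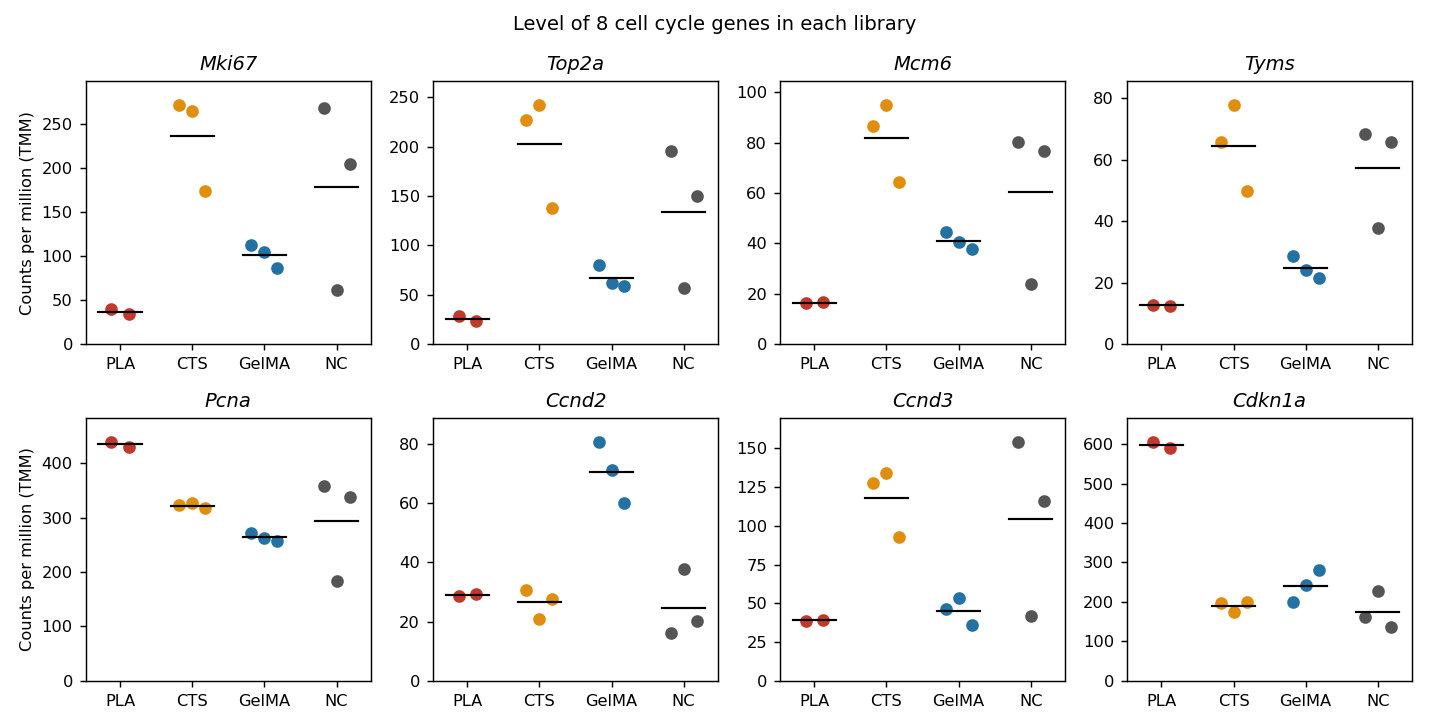
Level of 8 genes in each library (points; y axis, CPM after TMM, starting at 0), with the group mean as a line, for PLA (n = 2), CTS, GelMA and NC (n = 3 each). Mki67, Top2a, Mcm6 and Tyms are lowest in PLA, Cdkn1a is highest in PLA, and Ccnd2 is highest in GelMA.

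Most mitosis genes were lower in PLA than in CTS and NC. Against CTS 21 of 22 were called lower, beside 10 of 18 replication and G1/S genes, and against NC 15 of 22 beside 9 of 18. Against GelMA 2 of 22 were, beside 0 of 18. The exception against CTS was Aurka, the Aurora kinase of the centrosome, at -0.43 ± 0.51 (adjusted p = 0.632), with 23.3 to 24.7 CPM in PLA, against 21.0 to 42.3 CPM in CTS, 21.9 to 26.3 CPM in GelMA and 11.9 to 56.4 CPM in NC.

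Among chromosome and spindle proteins, Mki67, which encodes the proliferation marker Ki-67 that coats mitotic chromosomes, had 39.9 and 33.7 CPM in PLA, against 271, 265 and 174 CPM in CTS, 113, 104 and 86.9 CPM in GelMA and 268, 61.7 and 205 CPM in NC. Top2a, the topoisomerase that untangles sister chromatids, had 28.2 and 23.2 CPM in PLA, against 227, 242 and 138 CPM in CTS, 80.4, 61.5 and 59.1 CPM in GelMA and 195, 56.9 and 150.4 CPM in NC. Nusap1, a spindle protein, had 2.90 and 3.69 CPM in PLA, against 34.8, 30.5 and 17.7 CPM in CTS, 11.6, 9.80 and 9.81 CPM in GelMA and 20.4, 6.50 and 20.5 CPM in NC. In all 3 genes PLA lay below every other library, GelMA lay between PLA and CTS, and NC 2 lay below the GelMA libraries while NC 1 and NC 3 lay above them. PLA held 0.207 times the NC level of Mki67 (-2.27 ± 0.51 on the log2 scale, adjusted p = 0.0151), 0.363 times that of GelMA (-1.46 ± 0.49, 0.0949, not called) and 0.156 times that of CTS (-2.68 ± 0.52, 0.00864). Top2a stood at -2.38 ± 0.47 (0.00828) relative to NC, -1.38 ± 0.45 (0.0864) relative to GelMA and -2.97 ± 0.49 (0.00357) relative to CTS. Nusap1 had the lowest value of the 46 genes against CTS at -3.07 ± 0.51 (0.00406), and stood at -2.26 ± 0.50 (0.0136) against NC. The calls against NC were lost without PLA 1 or without PLA 2. Against CTS that of Mki67 was lost without either PLA library, that of Top2a without PLA 2 and that of Nusap1 without PLA 1.

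Motor proteins of the spindle and the spindle factor Tpx2 followed. Kif11, the motor that pushes spindle poles apart, had 12.7 and 5.84 CPM in PLA, against 65.9, 67.1 and 37.2 CPM in CTS, 29.1, 23.9 and 22.9 CPM in GelMA and 56.0, 19.1 and 47.0 CPM in NC. Kif20a, a motor of cytokinesis, had 2.98 and 2.58 CPM in PLA, against 15.5, 17.7 and 9.41 CPM in CTS, 5.11, 7.80 and 6.31 CPM in GelMA and 14.6, 3.98 and 11.4 CPM in NC. Tpx2, which nucleates spindle microtubules and activates Aurora A, had 9.08 and 10.1 CPM in PLA, against 59.2, 55.5 and 42.6 CPM in CTS, 21.5, 20.9 and 18.7 CPM in GelMA and 51.2, 14.0 and 40.8 CPM in NC. None of the PLA libraries reached the level of any other library in these genes, although for Kif20a PLA 1 and NC 2 lay 1 CPM apart. Relative to NC they were at -2.13 ± 0.50 (adjusted p = 0.0173), -1.84 ± 0.52 (0.0375) and -1.88 ± 0.45 (0.0188) in that order. Against CTS they were at -2.61, -2.35 and -2.45, all called. The calls of Kif11 were lost without PLA 2, those of Tpx2 and Kif20a without PLA 1 or without PLA 2, and that of Kif20a against NC also without CTS 1, GelMA 2, GelMA 3, NC 1 or NC 3.

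Centromere and kinetochore genes kept the same order. Cenpa, the histone H3 variant of centromeres, had 7.13 and 5.63 CPM in PLA, against 32.1, 26.4 and 20.3 CPM in CTS, 11.7, 11.4 and 10.5 CPM in GelMA and 39.4, 8.94 and 26.4 CPM in NC. Cenpe, a kinetochore motor, had 9.99 and 8.51 CPM in PLA, against 44.3, 49.9 and 27.2 CPM in CTS, 23.6, 17.6 and 14.3 CPM in GelMA and 38.6, 12.3 and 28.7 CPM in NC. Cenpf, a kinetochore protein, had 6.09 and 7.95 CPM in PLA, against 29.7, 32.3 and 20.1 CPM in CTS, 15.2, 8.71 and 12.4 CPM in GelMA and 19.3, 6.32 and 22.3 CPM in NC. In Cenpf the library PLA 2 lay above NC 2, and in Cenpa and Cenpe PLA lay below all libraries. Birc5, which encodes survivin of the chromosomal passenger complex, had 3.32 and 2.71 CPM in PLA, against 17.9, 19.1 and 10.9 CPM in CTS, 6.73, 6.10 and 3.68 CPM in GelMA and 12, 3.88 and 12.7 CPM in NC. PLA was lowest here too, close to GelMA 3 and NC 2. All 4 were called lower in PLA against CTS, at -2.04, -2.13, -1.96 and -2.41 in that order, and each call was lost without PLA 1 or without PLA 2, and those of Cenpa and Cenpf also without CTS 1 or CTS 2. Against NC, Cenpa at -1.96 ± 0.51 (adjusted p = 0.027) and Cenpe at -1.52 ± 0.45 (0.0476) were called, and Birc5 at -1.66 ± 0.52 (0.0542) and Cenpf at -1.19 ± 0.48 (0.13) were not. The call of Cenpa against NC was lost without PLA 1, PLA 2 or NC 3, and that of Cenpe without any single library except CTS 3 and NC 2.

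Of the mitotic cyclins and their kinase, Ccna2, cyclin A2 of S phase and early mitosis, had 6.22 and 5.16 CPM in PLA, against 47.4, 43.8 and 25.3 CPM in CTS, 16.5, 11.8 and 12.1 CPM in GelMA and 39.2, 7.09 and 34.1 CPM in NC. Ccnb1, the main mitotic cyclin, had 4.19 and 4.86 CPM in PLA, against 26.6, 30.2 and 16.5 CPM in CTS, 12.6, 13.7 and 9.05 CPM in GelMA and 24.9, 4.97 and 21.4 CPM in NC. Ccnb2, its relative, had 8.95 and 5.89 CPM in PLA, against 30.2, 35.7 and 27.8 CPM in CTS, 11.5, 11 and 11.4 CPM in GelMA and 37.2, 10.3 and 27.3 CPM in NC. PLA was below every other library in all 3 genes, by less than 1 CPM from NC 2 in Ccna2 and Ccnb1. Cdk1, the kinase these cyclins activate and whose promoter window holds 2 CHR and 2 CCAAT matches, had 6.51 and 6.79 CPM in PLA, against 35.8, 40.2 and 26.9 CPM in CTS, 13.0, 13.4 and 8.76 CPM in GelMA and 42.2, 13.8 and 26.5 CPM in NC. PLA was again lowest. Relative to NC, Cdk1 was at -2.05 ± 0.43 (adjusted p = 0.0107), relative to GelMA at -0.82 ± 0.41 (0.247) and relative to CTS at -2.37 ± 0.44 (0.00645). Ccna2 and Ccnb2 were called lower against NC at -2.24 and -1.75 (adjusted p = 0.0348 and 0.026), Ccnb1 at -1.92 was not (0.0511), and all 3 were called against CTS. Leaving out PLA 1 or PLA 2 ended each of these calls. Against NC so did NC 3 for Ccnb2 and GelMA 2, NC 1 or NC 3 for Ccna2, and against CTS so did CTS 1 for Ccna2 and CTS 1 or CTS 2 for Ccnb1.

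Cdc20 and Cdc25c were the mitosis genes called lower in PLA in all 3 comparisons. Cdc20, which activates the anaphase-promoting complex, had 2.74 and 1.72 CPM in PLA, against 12.6, 14.6 and 10.4 CPM in CTS, 6.73, 6.58 and 6.31 CPM in GelMA and 10.3, 6.28 and 6.66 CPM in NC. Cdc25c, the phosphatase that switches Cdk1 on, had 1.12 and 2.84 CPM in PLA, against 9.95, 11.3 and 6.82 CPM in CTS, 9.82, 5.83 and 5.75 CPM in GelMA and 9.29, 4.83 and 7.81 CPM in NC. PLA lay below all other libraries in both, and GelMA overlapped NC. Cdc20 was at -1.79 ± 0.33 (adjusted p = 0.00567) relative to NC, -1.55 ± 0.33 (0.0181) relative to GelMA and -2.49 ± 0.34 (0.00137) relative to CTS. Cdc25c was at -1.89 ± 0.49 (0.0271), -1.85 ± 0.49 (0.0423) and -2.24 ± 0.50 (0.0156) in that order. The call of Cdc20 against GelMA was lost without PLA 1, PLA 2, GelMA 1 or GelMA 2, and that against NC without PLA 2. Cdc25c, at 1.12 to 11.3 CPM, lost its call against GelMA without any single library other than CTS 3, NC 1 and NC 2, and its other calls without PLA 1, and against NC also without NC 3.

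The remaining kinases and checkpoint genes gave the same direction with fewer calls. Plk1, the Polo kinase, had 3.19 and 0.859 CPM in PLA, against 11, 10.3 and 8.98 CPM in CTS, 5.44, 5.10 and 4.20 CPM in GelMA and 15.0, 3.21 and 8.07 CPM in NC. Aurkb, the Aurora kinase of the chromosomal passenger complex, had 9.41 and 5.80 CPM in PLA, against 45.2, 42.9 and 25.9 CPM in CTS, 17.5, 16.5 and 11.9 CPM in GelMA and 45.3, 9.80 and 31.0 CPM in NC. Ube2c, the ubiquitin-conjugating enzyme of the anaphase-promoting complex, had 4.43 and 3.52 CPM in PLA, against 18, 16.7 and 9.54 CPM in CTS, 6.94, 5.61 and 5.75 CPM in GelMA and 14.2, 3.93 and 13.0 CPM in NC. PLA lay below CTS and GelMA without overlap in these, and in Ube2c NC 2 fell between both PLA libraries. Bub1, a kinase of the spindle checkpoint, had 13.3 and 11.3 CPM in PLA, against 63.9, 57.7 and 38.9 CPM in CTS, 23.6, 19.7 and 19.0 CPM in GelMA and 52.2, 22.4 and 43.0 CPM in NC. Bub1b, which encodes the checkpoint protein BubR1, had 5.80 and 3.74 CPM in PLA, against 27.5, 22.8 and 16.8 CPM in CTS, 7.99, 11.3 and 9.66 CPM in GelMA and 23.2, 5.78 and 15.8 CPM in NC. PLA lay below all other libraries in Bub1, and in Bub1b PLA 1 was level with NC 2. Bub1 and Aurkb were called lower against NC at -1.67 and -1.92 (adjusted p = 0.0106 and 0.0434), and Plk1, Ube2c and Bub1b were not (adjusted p = 0.057, 0.0936 and 0.0544). All 5 were called against CTS, from -2.32 in Plk1 to -1.89 in Ube2c, and each of the calls was lost without PLA 2. Apart from that of Bub1 against CTS they were lost without PLA 1 as well, and against CTS those of Bub1b without CTS 1 and of Aurkb, Plk1 and Ube2c without CTS 1 or CTS 2. The calls of Plk1 and Ube2c were lost without any GelMA library too, that of Plk1 without CTS 3 or NC 3, and that of Aurkb against NC without any single library except CTS 3 and NC 2.

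**Figure D3:**
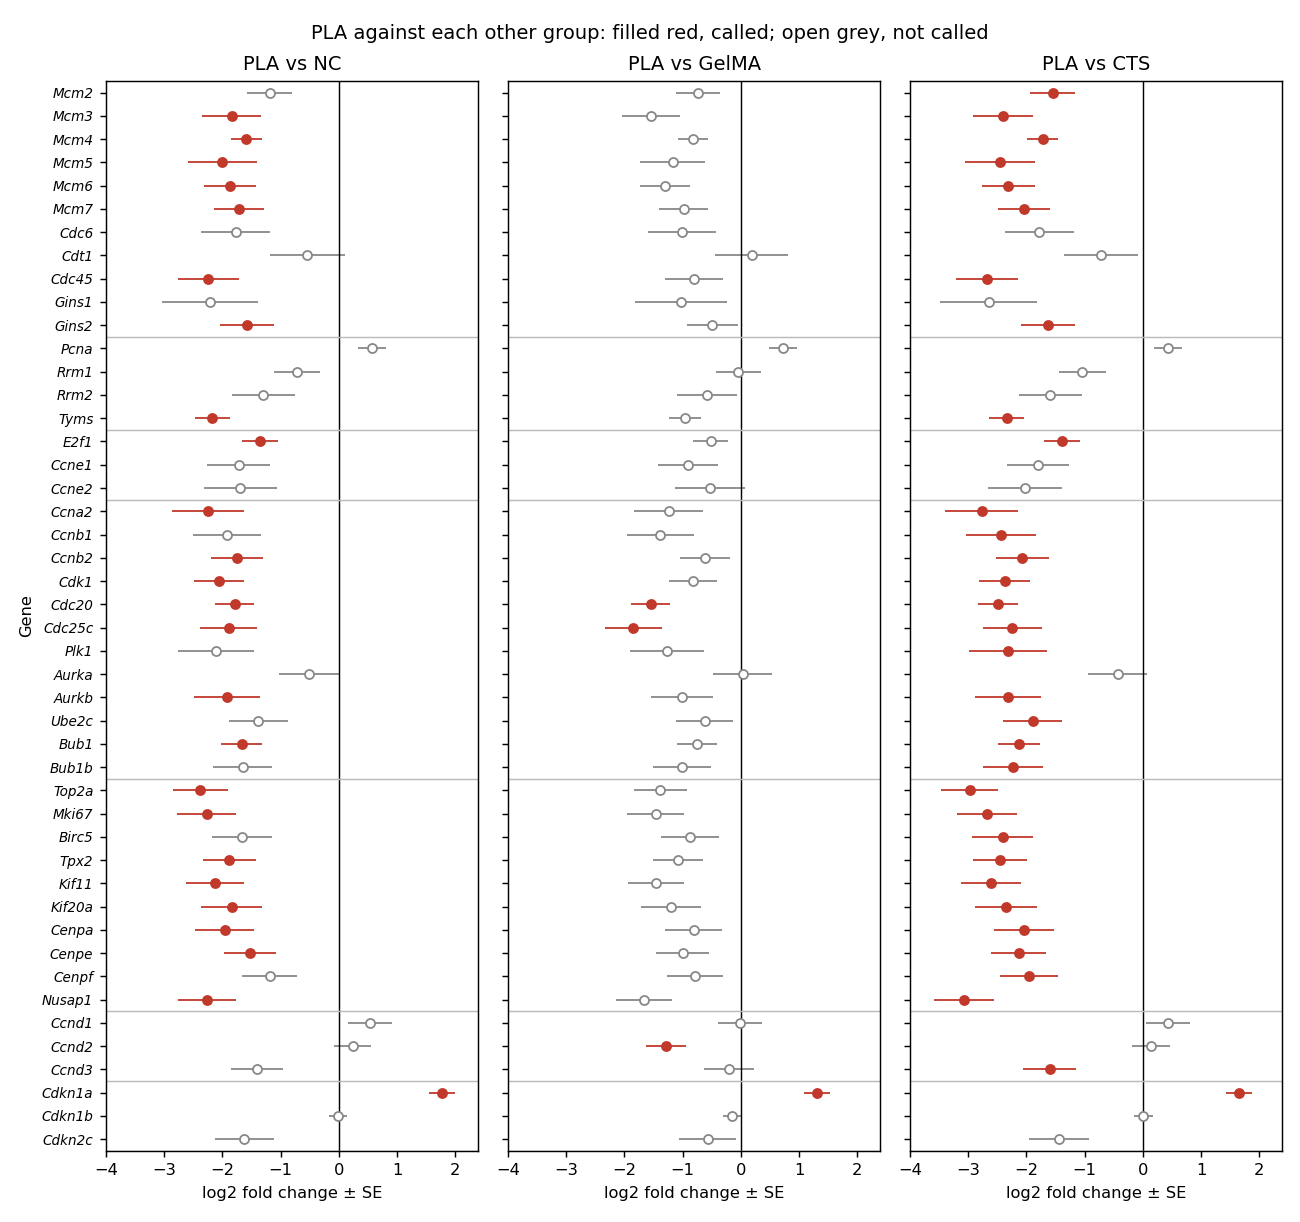
Log2 fold change (points, x axis) with its SE (bars) of each of the 46 genes (rows, by role) in PLA against NC, GelMA and CTS; filled red points were called and open grey points were not. Points lie left of 0 for 42 of 46 genes against NC and against GelMA, and Cdkn1a is the only red point right of 0.

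Replication and mitosis genes can be set against each other within a library, where the scaling of the library largely cancels. The mean log2 CPM of the 18 replication and G1/S genes was 3.40 and 3.39 in PLA, against 5.21, 5.33 and 4.87 in CTS, 4.20, 4.12 and 3.93 in GelMA and 5.29, 3.51 and 5.19 in NC. For the 22 mitosis genes it was 2.78 and 2.53 in PLA, against 5.13, 5.16 and 4.49 in CTS, 3.90, 3.76 and 3.58 in GelMA and 5.02, 3.23 and 4.65 in NC. Both means were lowest in the PLA libraries. The difference, replication minus mitosis, was 0.62 and 0.86 in PLA, against 0.07, 0.17 and 0.38 in CTS, 0.31, 0.36 and 0.36 in GelMA and 0.27, 0.29 and 0.53 in NC. Both PLA libraries lay above the other 9. The 18 genes include Pcna, at 429 to 439 CPM in PLA, against 317 to 327 CPM in CTS, 256 to 272 CPM in GelMA and 184 to 359 CPM in NC. This 1 gene raised the difference in PLA, and the gap between PLA 1 and NC 3 may rest on it. The difference was not computed without Pcna. NC 2, whose means were nearest to those of PLA, had a difference of 0.29, between the values of NC 1 and NC 3. No test was made on these means, since they are scores over chosen genes.

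**Figure D4:**
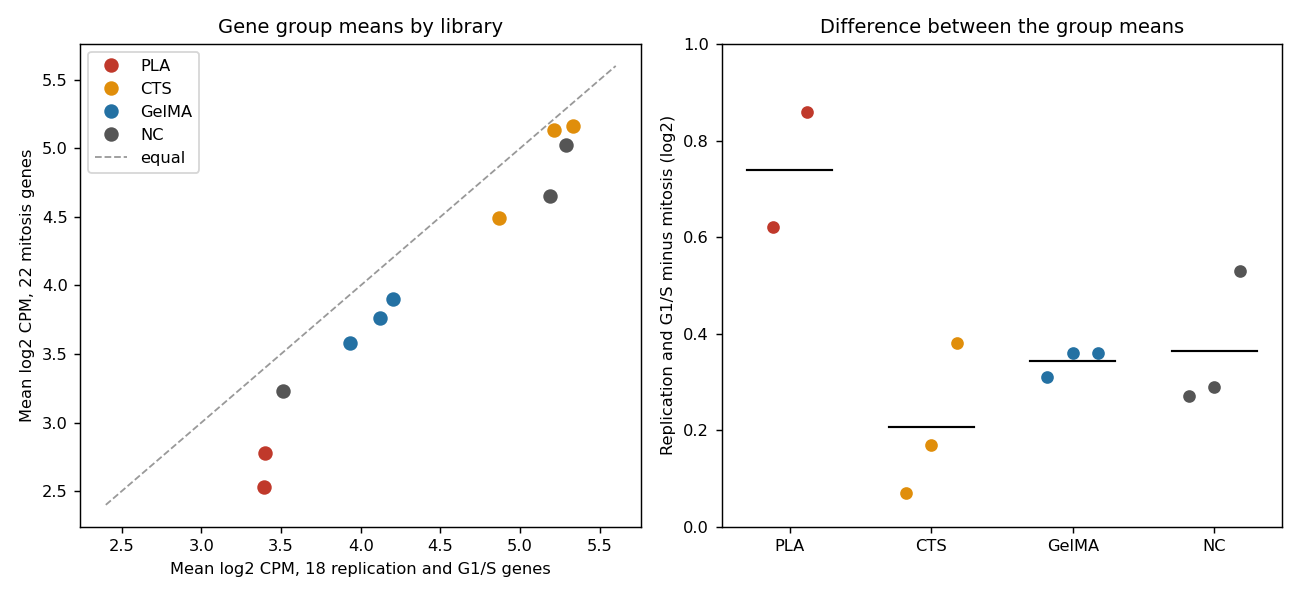
Left, mean log2 CPM of the 18 replication and G1/S genes (x axis) and of the 22 mitosis genes (y axis) in each library (points coloured by group), with a dashed line where both are equal; right, their difference in each library, with group means as lines. The PLA libraries lie at the low end on the left, at 3.40 and 3.39 by 2.78 and 2.53, and highest on the right, at 0.62 and 0.86. The 18 genes include Pcna, which was highest in PLA and raised the difference there.

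The D-type cyclins each had a pattern of their own. Ccnd1, cyclin D1, had 22.8 and 23.5 CPM in PLA, against 17.3, 10.4 and 24.0 CPM in CTS, 20.1, 21.8 and 28.0 CPM in GelMA and 12, 23.9 and 12 CPM in NC. It overlapped between PLA and every other group and was not called. Ccnd2, cyclin D2, had 28.8 and 29.5 CPM in PLA, against 30.8, 20.9 and 27.8 CPM in CTS, 80.8, 71.4 and 59.9 CPM in GelMA and 16.1, 37.7 and 20.2 CPM in NC. Its 3 GelMA libraries lay above all others. Ccnd2 was called lower in PLA than in GelMA at -1.28 ± 0.34 (adjusted p = 0.0423), and was at 0.24 ± 0.32 (0.669) relative to NC and 0.14 ± 0.32 (0.828) relative to CTS. Both of those small values turned below 0 with library size alone. Ccnd3, cyclin D3, had 38.8 and 39.4 CPM in PLA, against 128, 134 and 92.5 CPM in CTS, 46.5, 53.2 and 36.1 CPM in GelMA and 154, 42.0 and 116 CPM in NC. PLA, GelMA and NC 2 were low and CTS, NC 1 and NC 3 were high. Ccnd3 was called lower in PLA against CTS at -1.60 ± 0.45 (0.0407) and not against NC at -1.41 ± 0.45 (0.0575). The Ccnd2 call against GelMA was lost without any single PLA, CTS or GelMA library or NC 3, and the Ccnd3 call without PLA 1, PLA 2, CTS 1, CTS 2, GelMA 1, GelMA 2 or NC 3.

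Cdkn1a was the one member called higher in PLA. It encodes p21, which binds cyclin-CDK complexes and Pcna and is a target of p53. Cdkn1a had 606 and 589 CPM in PLA, against 197, 175 and 199 CPM in CTS, 199, 244 and 281 CPM in GelMA and 163, 227 and 137 CPM in NC. Both PLA libraries were far above the other 9, of which GelMA 3 was highest. The level in PLA was 3.40 times that of NC (log2 fold change 1.77 ± 0.22, adjusted p = 0.000651), 2.47 times that of GelMA (1.31 ± 0.22, 0.00644) and 3.14 times that of CTS (1.65 ± 0.22, 0.00128). The calls against NC and CTS held without any single library. The call against GelMA was lost without PLA 1, without PLA 2 and with library size alone, where 0 of the 46 genes were called higher and 15 lower.

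Neither of the other inhibitors was called in any comparison. Cdkn1b, which encodes p27, had 216 and 237 CPM in PLA, against 243, 221 and 209 CPM in CTS, 287, 232 and 236 CPM in GelMA and 229, 242 and 213 CPM in NC. All 11 libraries lay between 209 and 287 CPM, and the log2 fold changes were -0.01 ± 0.16, -0.15 ± 0.16 and 0.01 ± 0.16 against NC, GelMA and CTS. Cdkn2c, which encodes p18 of the INK4 family, had 7.13 and 6.23 CPM in PLA, against 20.8, 17.8 and 15.9 CPM in CTS, 12.3, 9.59 and 7.94 CPM in GelMA and 33.8, 7.41 and 20.2 CPM in NC. It was low in PLA, in GelMA and in NC 2, as the mitosis genes were. Cdkn2c stood at -1.62 ± 0.51 (adjusted p = 0.0588) against NC and -1.44 ± 0.51 (0.0884) against CTS and was not called. Per gene length, Pcna had the highest level of the 46 genes in PLA at 290.6 ± 6.89 FPKM, fragments scaled for gene length and library size, Cdkn1a came next at 192 ± 5.34 FPKM and Cdkn1b after it at 73.2 ± 4.18 FPKM (SD, n = 2). In NC, Cdkn1a was at 69.4 ± 6.96 FPKM and Pcna at 256 ± 111 FPKM (SD, n = 3). Pcna was at 300 ± 6.59 FPKM in CTS, above PLA on this measure, and at 256 ± 10.95 FPKM in GelMA (SD, n = 3 each).

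Comparisons without PLA gave few calls among the 46 genes. In CTS against NC none was called in either direction by edgeR or DESeq2, where 0.155% of all genes were higher and 0.0222% lower, and 1 of the 46 had an unadjusted p under 0.05. In GelMA against NC, Tyms was called lower at -1.21 ± 0.25 (adjusted p = 0.0141; 3.21% of all genes were lower) and Ccnd2 higher at 1.52 ± 0.30 (0.0115; 5.03% higher). The call of Tyms was lost without GelMA 2 or GelMA 3, and that of Ccnd2 without GelMA 1, GelMA 2 or NC 3. Without NC 2, 29 of the 46 genes were called lower in GelMA than in NC. Over all genes 1200 were then lower, against 580 with every library. In CTS against GelMA, Tyms at 1.38 ± 0.25 (0.0258) and Bub1 at 1.37 ± 0.30 (0.0479) were called higher (0.416% of all genes) and Ccnd2 lower at -1.41 ± 0.29 (0.0399; 1.32%). These 3 calls were each lost without PLA 1, PLA 2, CTS 1, CTS 2 or any GelMA library, that of Ccnd2 also without CTS 3 or NC 3 and that of Bub1 without NC 3. With library size alone 0 were called higher and 1 lower. All libraries share 1 estimate of spread. Without NC 2 there were 28 called higher, without NC 1 there were 8, and without NC 3 there was 1. Over all genes 671, 222 and 54 were higher in those fits, against 75 with every library. Every CTS library lay above every GelMA library in 40 of the 46 genes, against 17.0% of all genes.

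Genes outside the 46 with the same roles were counted from lists drawn up with earlier results known. Of 35 other replication factors, 11 were lower and 0 higher in PLA against NC, 1 lower against GelMA and 16 lower against CTS. Of all genes, 4.01% were lower against NC, 1.47% against GelMA and 3.53% against CTS. Pola1, a subunit of the polymerase that primes DNA synthesis, was lower in all 3 comparisons, at -1.57 ± 0.28 (adjusted p = 0.00475) from NC, -1.08 ± 0.27 (0.0378) from GelMA and -1.92 ± 0.28 (0.0021) from CTS. Pole and Pole2, subunits of the leading-strand polymerase, were at -2.24 and -2.53 against NC, both called. Of 34 other mitosis factors, 18, 2 and 25 were lower against NC, GelMA and CTS. Ndc80, of the outer kinetochore, was lower in all 3, at -1.99, -1.42 and -2.26, and Pbk, a mitotic kinase, was at -3.40 against NC. The 1 mitosis factor called higher was Cks2, a CDK-binding subunit, at 2.45 ± 0.38 (0.00215) relative to NC, 2.27 ± 0.38 (0.00573) to GelMA and 2.06 ± 0.38 (0.00623) to CTS. It had 260.4 and 302 CPM in PLA, against 71.6, 67.0 and 63.6 CPM in CTS, 60.1, 59.1 and 56.2 CPM in GelMA and 71.7, 21.5 and 61.6 CPM in NC. Both PLA libraries lay above all others.

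Another 18 genes were G1 kinases, pocket proteins and E2F factors. Among these, 8 were lower in PLA when set against NC, 0 for GelMA and 7 for CTS, and none was higher. Of all genes, 4.01%, 1.47% and 3.53% were lower in that order. E2f8 and E2f7, the E2F factors that repress, were lower against NC at -3.24 ± 0.57 (adjusted p = 0.00465) and -2.35 ± 0.65 (0.0345), and Cdk2, the kinase of S phase, at -1.50 ± 0.34 (0.0143). E2f8 and Cdk2 were also lower in GelMA than in NC, at -2.08 and -1.20. Of 5 other CDK inhibitors, Cdkn2b, which encodes p15, was higher in PLA against NC at 1.79 ± 0.49 (0.0342) and CTS at 2.17 ± 0.49 (0.0176). Cdkn3, a CDK phosphatase whose own level peaks in mitosis, was lower against NC and CTS at -2.11 and -2.29.

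Among 18 tested targets of p53, 7 were higher in PLA when set against NC, 6 when set against GelMA and 7 when set against CTS, and none was lower. Of all genes, 8.32%, 4.61% and 6.42% were higher and 4.01%, 1.47% and 3.53% lower in that order. Gadd45a, a DNA damage response gene, had 1530.4 and 1575 CPM in PLA, against 621, 537 and 515 CPM in CTS, 301, 308 and 284 CPM in GelMA and 1095, 469 and 662 CPM in NC. Bax, the pore protein of apoptosis, had 48.2 and 45.3 CPM in PLA, against 13.1, 11.7 and 16.9 CPM in CTS, 16.3, 23.1 and 23.5 CPM in GelMA and 8.44, 12 and 9.72 CPM in NC. PLA lay above all other libraries in both. Relative to NC, Gadd45a was at 1.06 ± 0.29 (adjusted p = 0.0329) and Bax at 2.22 ± 0.24 (0.000264). Relative to GelMA they were at 2.38 ± 0.29 (0.00124) and 1.16 ± 0.24 (0.0159), and relative to CTS at 1.48 ± 0.29 (0.00873) and 1.75 ± 0.24 (0.00133). Aen, a nuclease of apoptosis, was higher against NC and CTS at 1.43 and 1.31, and was at -0.14 against GelMA.

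Of the markers of blood cell types, the sums of granulocyte progenitor and neutrophil markers were low in PLA, GelMA and NC 2. Those libraries also had the lower levels of replication and mitosis genes, and the other lists had other orders. The summed level of 6 granulocyte progenitor markers (Mpo, Elane, Prtn3, Ctsg, Ms4a3 and Cebpe) was 158 to 308 CPM in PLA, against 1270 to 2180 CPM in CTS, 140 to 347 CPM in GelMA and 497 to 3230 CPM in NC, with 497 in NC 2. Of these 6 genes, 5 were called lower in PLA against NC (4.01% of all genes), 4 against CTS (3.53%) and 0 against GelMA (1.47%). All 6 were lower in GelMA than in NC (3.21%). The sum of 9 neutrophil markers was 11700 to 11800 CPM in PLA, against 28700 to 49100 CPM in CTS, 5330 to 12800 CPM in GelMA and 9710 to 71900 CPM in NC, most of it from S100a8 and S100a9. Of these 9 genes, 3 were called lower and 1 higher in PLA against NC, 2 lower and 1 higher against CTS and none against GelMA. The gene called higher was Csf3r, the G-CSF receptor, at 925 and 812 CPM in PLA, against 265 to 308 CPM in CTS, 290 to 507 CPM in GelMA and 85.2 to 320 CPM in NC. The sum of 6 mast cell markers was 29.2 to 44.3 CPM in PLA, against 192 to 270 CPM in CTS, 41.5 to 48.8 CPM in GelMA and 194 to 773 CPM in NC, where NC 2 was highest, with 5, 1 and 3 of the 6 called lower in PLA against NC, GelMA and CTS. Mcpt2, a mast cell protease, had 1 and 0 counts in PLA. The granulocyte progenitor sums of PLA and GelMA overlapped, while the mitosis genes were lower in PLA than in GelMA without overlap in 21 of 22 cases, against 30.7% of all genes. The part of these cells in the differences was not tested.

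The sum of 8 leukocyte markers was 7030 to 7160 CPM in PLA, against 5360 to 6420 CPM in CTS, 5450 to 5700 CPM in GelMA and 1770 to 8160 CPM in NC. None of the 8 was called lower in PLA. Against NC 2 were called higher (8.32% of all genes), against GelMA 0 (4.61%) and against CTS 1 (6.42%). Cd53, a leukocyte tetraspanin, was called higher against NC at 1.99 ± 0.41 (adjusted p = 0.0103), while Coro1a, an actin regulator of leukocytes, was at -1.16 ± 0.53 (0.174) and was not called. The sum of 8 fibroblast markers was 25000 to 38100 CPM in PLA, against 22800 to 37000 CPM in CTS, 25000 to 26100 CPM in GelMA and 9240 to 229000 CPM in NC, with no call in a PLA comparison. NC 2 held the lowest leukocyte sum and the highest fibroblast sum of all libraries, and it was the NC library with the lowest mean of replication and mitosis genes. Macrophage markers summed to 406 to 508 CPM in PLA, against 302 to 467 CPM in CTS, 920 to 1130 CPM in GelMA and 163 to 198 CPM in NC, and T and NK cell markers to 213 to 253 CPM in PLA, against 158 to 268 CPM in CTS, 551 to 589 CPM in GelMA and 75 to 156 CPM in NC. Against NC, 3 of 8 macrophage markers and 6 of 7 T and NK cell markers were called higher in PLA (8.32% of all genes), and 1 of the 7 lower (4.01%). Against GelMA, 2 of the 8 and 2 of the 7 were called lower (1.47%) and none higher. Against CTS, 2 of the 8 were called higher (6.42%) and none of the 7 was called. B cell markers summed to 73.7 to 96.8 CPM in PLA, against 138 to 169 CPM in CTS, 284 to 378 CPM in GelMA and 69.4 to 229 CPM in NC. Of these 10 genes, 5 were called lower in PLA than in GelMA (1.47% of all genes) and 5 higher in GelMA than in NC (5.03%). GelMA, the group with the highest Ccnd2, was highest in these 3 lists, and their part in the Ccnd2 level was not tested. Erythroid markers summed to 366 to 374 CPM in PLA, against 175 to 219 CPM in CTS, 272 to 487 CPM in GelMA and 95.4 to 361 CPM in NC, and 317 and 300 CPM of the PLA sums came from Tfrc, the transferrin receptor that dividing cells of many types carry. Of the 10 erythroid genes, 9 had log2 fold changes below 0 in PLA against NC, with a median of -1.31 and 1 called lower, and Alas2, the heme synthesis enzyme of red cells, had 0 and 2 counts in PLA. Of 8 osteoblast markers, 1 was called higher in PLA against NC (8.32% of all genes), Spp1, which encodes osteopontin, at 4.85 ± 0.68 (adjusted p = 0.00117). The osteoblast list mostly went the other way, with 5 of the 8 below 0 against NC and a median of -1.03. Of 6 endothelial markers 1 was called higher against GelMA (4.61%), Cdh5, at 1.61 ± 0.41 (0.0383), and 5 of the 6 were above 0. None of either list was called lower in PLA.

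**Figure D5:**
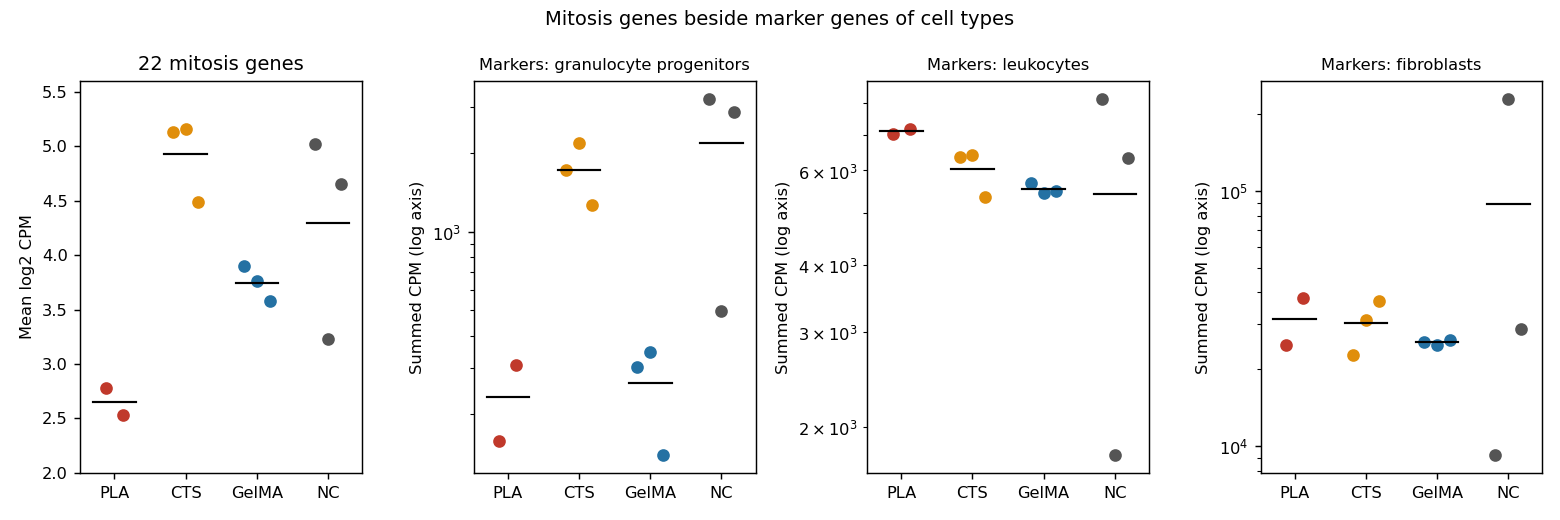
Mean log2 CPM of the 22 mitosis genes (left) and summed CPM of marker genes of granulocyte progenitors, leukocytes and fibroblasts (log axes) in each library (points), with group means as lines, for PLA (n = 2), CTS, GelMA and NC (n = 3 each). Granulocyte progenitor markers are low in PLA and GelMA, and NC 2 has the lowest leukocyte sum and the highest fibroblast sum.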

How the data were processed

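RNA was sequenced from Cd45- cells of 11 rat calvarial samples, 2 PLA and 3 each of CTS, GelMA and NC. The submitters' processing notes name fastp, HISAT2, HTSeq and DESeq with the assembly mRatBN7.2, and the authors deposited raw counts and FPKM. Each FPKM is its count over the product of gene length and library size. Tool versions and the strand setting of the counting are not given in the sources used here, so overlapping and antisense genes may share reads.

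Counts were scaled by TMM and fitted with edgeR 4.0.16 (robust quasi-likelihood, all 4 groups in 1 model) in R 4.3.3 after filterByExpr with a minimum count of 10, which kept 18049 of 23781 genes. P-values were adjusted by Benjamini-Hochberg over all of these. Log2 CPM used a prior count of 2. Alternatives were DESeq2 1.42.0, limma 3.58.1 on log2(FPKM + 1) or log2(FPKM + 0.1), other scaling, no filter, only the groups compared, a replicate block, other thresholds and each library left out. Depth was 22509898 to 31290849 counts a library.

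The 46 genes and all lists were chosen with earlier results of these data known. Values in each library are given for genes called in any comparison and for Mki67, Top2a, Pcna, Mcm2, the D-type cyclins and the CDK inhibitors, the remainder by range and counts. From each list of further genes up to 3, called in the most comparisons, are named.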

Additional observations from a re-analysis of the deposited data

How the results depend on the processing

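The count of genes lower in PLA than NC (24) was 1 with edgeR on these groups alone and 15 with the replicate block. It was 8 with limma on log2(FPKM + 1) without a filter and 4 at an adjusted p under 0.01. DESeq2 gave 36 and library size alone 33. Leaving out each NC, CTS or GelMA library in turn gave 13 to 40, and the count was lower than that without a PLA library. The count against CTS (32) was 12 at an adjusted p under 0.01, 38 with DESeq2 and 39 with library size alone. It was 20 to 39 with an NC, CTS or GelMA library left out, and lower without a PLA library. Against GelMA (3 lower, 1 higher) library size alone gave 15 lower and 0 higher, limma 10 (FPKM + 1) or 14 (FPKM + 0.1) lower and 0 higher, also 0 higher without a filter, edgeR on these groups alone 14 lower, DESeq2 9 and the block 1, an adjusted p under 0.01 gave 0 lower, and a library left out gave 0 to 18 lower and 0 to 1 higher. For GelMA against NC (1 higher, 1 lower), RLE scaling and no filter gave 2 lower, DESeq2 7, limma 0, both edgeR on these groups alone and an adjusted p under 0.01 gave 0 and 0, and leaving out a library gave 0 to 29 lower and 0 to 1 higher. For CTS against GelMA (2 higher, 1 lower), higher calls were 0 with library size alone or limma, 4 without a filter, 30 with edgeR on these groups alone and 12 with DESeq2, the block and an adjusted p under 0.01 gave 0 and 0, and leaving out a library gave 0 to 28 higher and 0 to 1 lower. The cause of these shifts was not tested. The mean level of replication and G1/S genes was 3.41 in PLA with RLE scaling and 3.03 with library size alone, where GelMA had 4.26, and that of mitosis genes was 2.3 in PLA and 3.91 in GelMA with library size alone. Deviations from the group means correlated at -0.11 to 0.12 over 15 pairs of same-numbered libraries, and 6 of 11 libraries were closest to their own number. With groups of 2 or 3 libraries this check is weak, and it cannot settle whether the block marks a pairing.

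The number of the 46 genes above 0 in CTS against NC was 43, and 24 without NC 2, where their median was 0.01. Among the genes followed one by one through the alternatives, those that changed sign were not called in that comparison. For CTS against NC, Cdkn1b was 0.13 with library size alone and limma, and Cdkn2c 0.18 to 0.22 with limma. For GelMA against NC, Pcna was 0 with library size alone and 0.12 with limma. For PLA against CTS, library size alone gave -0.05 for Ccnd1, -0.34 for Ccnd2, -0.47 for Cdkn1b and -0.05 for Pcna, limma gave -0.32 to -0.31 for Ccnd2, -0.46 for Cdkn1b and -0.05 for Pcna, and Cdkn1b was -0.04 without a filter and -0.03 on these groups alone and with the block. For PLA against GelMA, Ccnd1 was 0.04 with RLE and DESeq2, 0.01 on these groups alone and 0.09 with the block. For PLA against NC, Ccnd2 was -0.03 with library size alone and Cdkn1b 0.05 on these groups alone. With a library left out, CTS against NC gave -0.23 to 0.52 for Ccnd1, -0.13 to 0.55 for Ccnd2, -0.2 to 0.58 for Ccnd3, -0.07 to 0.34 for Cdkn1a, -0.11 to 0.02 for Cdkn1b, -0.57 to 0.39 for Cdkn2c and -0.11 to 0.31 for Pcna, GelMA against NC gave -0.02 to 0.18 for Cdkn1b and -0.4 to 0.02 for Pcna, PLA against CTS gave -0.05 to 0.21 for Ccnd2 and -0.09 to 0.07 for Cdkn1b, PLA against GelMA gave -0.12 to 0.12 for Ccnd1, and PLA against NC gave -0.14 to 0.05 for Cdkn1b. With 2 PLA libraries, differences within the spread of 1 library could not be resolved.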
